A study of Danio rerio with 4 samples.

Results

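The 8 keratin genes described here are krt4, krt5, krt8, krt17, krt18, krt92, cyt1 and cyt1l, taken by name from a table of 32538 genes. The table's own symbols gave 7 of them, and krt92 is the current symbol of gene ENSDARG00000036834, which the table calls KRT23 (7 of 15). The study sequenced RNA of zebrafish embryos that had reached 6 somites, at 12 h of age, in 2 libraries from tbx1 mutants carrying the vgo allele and 2 libraries from wild-type controls. The labels call the mutants null. The gene tbx1 makes a transcription factor of the T-box family, and the series addresses what it does in the cardiopharyngeal lineage. Every library was of polyadenylated RNA from whole-embryo material without the tail tip and a little yolk, which had gone to genotyping. The sources do not say how the controls were related to the mutants or if embryos were pooled, and p-values here reflect the spread among these libraries alone, part of which may be technical.

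Keratins are the intermediate filament proteins of epithelial cells. A type I and a type II chain pair to form a filament, which desmosomes anchor at cell borders. In the early zebrafish embryo the outermost cells form the enveloping layer, which becomes the periderm, over basal epidermal cells that depend on the transcription factor tp63. krt4, krt5 and krt8 are type II genes and the other 5 are type I genes. krt8 and krt18 make the usual pair of simple epithelia.

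The values are FPKM, fragments scaled by transcript length and by the mapped total of the library, so levels may be compared between genes. Each estimate carries the authors' status word, and one marked FAIL is listed at 0. Of the 8 keratins, 7 had status OK in all 4 libraries and had a mean of at least 1 FPKM, which let them be tested. krt18 failed in mutant 2 and in control 1. A failed estimate was counted neither as a level nor as an absence. FAIL was rare, with 10, 6, 10 and 4 genes in mutant 1, mutant 2, control 1 and control 2. Read totals were not given. The spacing of the lowest values put the depth of mutant 1, mutant 2 and control 2 at 0.821, 0.724 and 0.838 of that of control 1. These are rough estimates, since the peaks that set them held only 72 of 1789, 109 of 1748 and 144 of 1658 genes of low value. Over the 7 tested keratins, the authors' 95% interval reached between 0.433% and 1.73% of the value to either side of its centre, against a median of 8.25% to 9.54% over all genes tested. These intervals are a poor guide for the keratins, however. Of their 28 values, 26 lay below the lower bound of their own interval, while 26.0% of the values of all genes tested lay outside theirs. cyt1 in mutant 1, for example, was listed at 821 FPKM with bounds of 880 and 903 FPKM.

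Keratin RNA was abundant in both genotypes, and none of the 7 tested keratins of the list passed the test of a difference between them. krt4, a type II keratin of the enveloping layer, was the highest, and the order of the 8 genes was krt4, krt5, krt18, krt8, krt92, cyt1, krt17 and cyt1l by their mean over usable estimates. The ranges over libraries did not overlap between neighbours in this order, except for krt18 with krt8 and for krt17 with cyt1l; within a library the first of each pair was still higher, in 2 of 2 and 4 of 4 libraries. Among rows with status OK and a locus of at least 300 bp, krt4 ranked 42 in mutant 1, 50 in mutant 2, 38 in control 1 and 61 in control 2, and cyt1l, the lowest of the 8, ranked between 209 and 256. The 7 tested keratins made up 1.25% and 1.13% of the summed FPKM of genes tested at such loci in mutants 1 and 2, against 1.27% and 1.08% in controls 1 and 2.

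**Figure D1:**
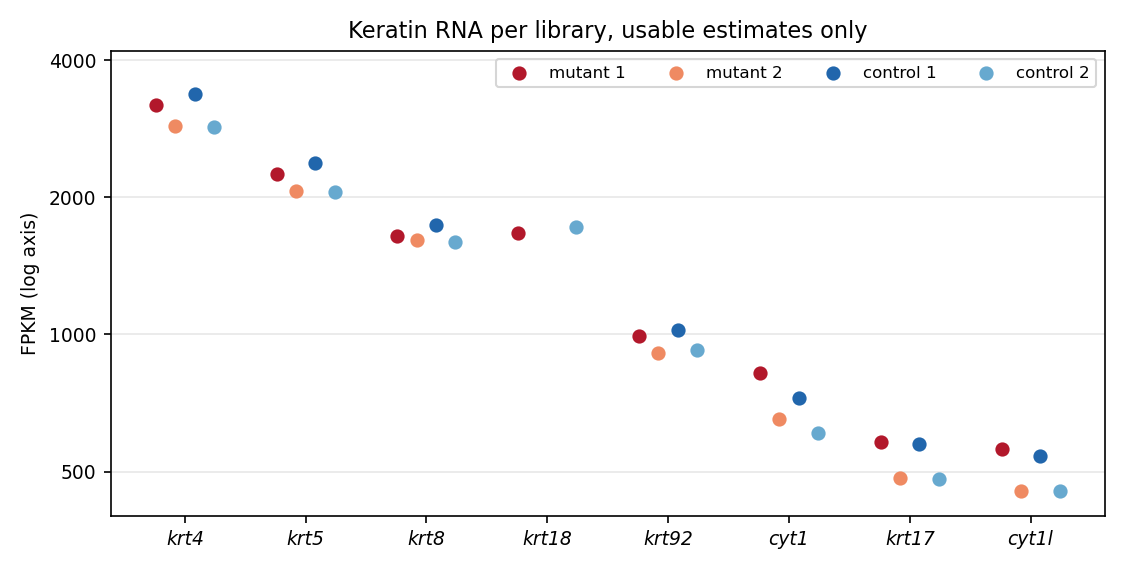
FPKM (log axis) of each keratin gene in each library, 1 point per library, mutants left of controls; krt18 has points only for mutant 1 and control 2, where its estimate did not fail. The 2 mutant points of each tested gene overlap the range of the 2 control points.

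The type II genes came first in level. krt4 (ENSDARG00000017624, Zv9 chromosome 6 from 39239361 to 39243891) had 3199 and 2871 FPKM in the mutants, against 3366 and 2854 FPKM in the controls. Both mutant values lay between the control values. The means were 3035 ± 232 FPKM in mutants and 3110 ± 363 FPKM in controls (SD, n = 2 each), and the log2 difference was -0.03 (SE 0.124, 95% interval -0.36 to 0.29, adjusted p = 1.0 in limma). krt5 (ENSDARG00000058371, chromosome 23 from 10280084 to 10284347), another type II keratin of the surface epithelium, had 2253 and 2064 FPKM in the mutants, against 2375 and 2054 FPKM in the controls. Again both mutant values lay inside the range of the controls, with a log2 difference of -0.03 (95% interval -0.33 to 0.26). krt8 (ENSDARG00000058358, chromosome 23 from 10355853 to 10360516) had 1645 and 1612 FPKM in the mutants, against 1743 and 1596 FPKM in the controls. Relative to its level, its libraries lay closest together of the 7 tested members, and its log2 difference of -0.03 had the narrowest interval, -0.26 to 0.19. A change of krt8 as large as 1.14-fold up, or down to 0.837 of the control level, would lie inside that interval.

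krt18 (ENSDARG00000018404, chromosome 23 from 10454076 to 10457982), the type I partner of krt8, had 1669 FPKM in mutant 1, against 1721 FPKM in control 2. With 1 usable library per genotype, carrying different library numbers, it was not tested. In these 2 libraries krt8 stood at 0.986 of krt18 in mutant 1 and at 0.927 in control 2, so the partner genes were at nearly equal levels per length.

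The remaining type I genes lie side by side on chromosome 19. krt92 (chromosome 19 from 5974114 to 5976185) had 993 and 911 FPKM in the mutants, against 1023 and 923 FPKM in the controls, with a log2 difference of -0.03 (95% interval -0.28 to 0.21). The mutant and control ranges overlapped. krt17 (ENSDARG00000094041, from 5991532 to 5996775), an epidermal type I keratin, had 581 and 484 FPKM in the mutants, against 574 and 481 FPKM in the controls, with a log2 difference of 0.01 (95% interval -0.34 to 0.37). In each genotype the library numbered 1 was high and the library numbered 2 low. cyt1l (ENSDARG00000036832, from 5980623 to 5982658), a neighbour of cyt1 named for its likeness to it, had 562 and 452 FPKM in the mutants, against 541 and 453 FPKM in the controls, with a log2 difference of 0.03 (95% interval -0.36 to 0.41).

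cyt1 (ENSDARG00000092947, chromosome 19 from 5986622 to 5988852), a type I cytokeratin gene of the enveloping layer, stood farthest from 0 among the 7. It had 821 and 652 FPKM in the mutants, against 725 and 607 FPKM in the controls. The ranges overlapped, since mutant 2 lay below control 1. The means were 736 ± 120 FPKM in mutants and 666 ± 83.6 FPKM in controls (SD, n = 2 each), and the log2 difference was 0.14 (SE 0.152, 95% interval -0.26 to 0.54, unadjusted p = 0.401 and adjusted p = 1.0 in limma). As a ratio, cyt1 stood at 1.46 and 1.44 times cyt1l in the mutants, against 1.34 and 1.34 times in the controls. Of the 21 ratios between pairs of tested keratins, 5 did not overlap between the genotypes, where 24.8% of all genes tested did not overlap in their own level, and the share over ratios of other genes was not computed. These 5 all had cyt1 as a partner, while the ratio of krt8 to cyt1, at 2.004 and 2.473 in the mutants against 2.404 and 2.629 in the controls, overlapped. Each of the 5 gave a two-sided p of 0.333 in an exact permutation test, which is the smallest that 2 libraries against 2 can give, and the ratios were looked at with the values known. Any ratio that does not overlap gives this p, so the test adds nothing to the lack of overlap. The 5 ratios share cyt1 and are not independent. The locus of cyt1 is overlapped by that of krt91. How reads were shared between them may affect both values, which was not tested.

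**Figure D2:**
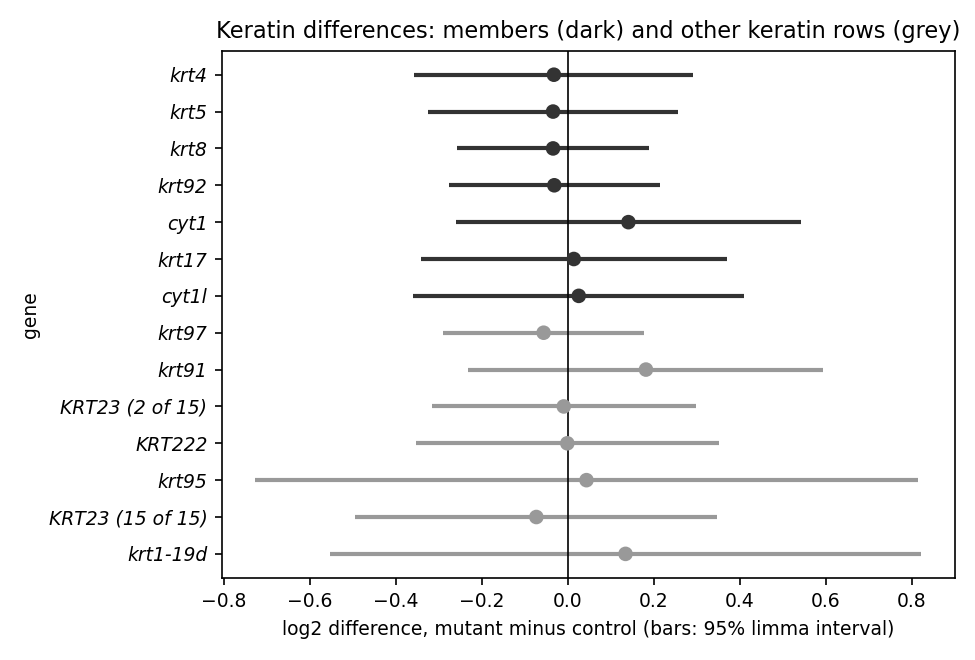
Log2 difference (mutant minus control) of the 7 tested keratins (dark) and 7 other tested keratin rows (grey), with 95% limma intervals as bars. Every interval includes 0, and cyt1 (0.14) and krt91 (0.18) are the farthest to the right among genes above 2 FPKM.

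As a group, 3 of the 7 tested keratins had a log2 difference above 0 and 4 below it. All 13448 genes tested gave 7695 above 0 and 5753 below it, which is also the background for the gene lists below. None of the 7 passed an adjusted p of 0.05 in limma and 0 had an unadjusted p under 0.05. Over all 13448 genes tested, 0.0669% passed the adjusted threshold and 1.99% had an unadjusted p under 0.05, so a count of 0 among 7 genes is near that background. The median log2 difference of the 7 was -0.03, beside 0.02 over all genes tested. After quantile normalization the median was 0.03 instead, with krt4, krt8 and krt92 above 0. In 0 of the 7 did both mutant values lie on one side of both control values, which held for 24.8% of all genes tested (15.6% with the mutants above and 9.14% with the mutants below). The summed FPKM of the 7 was 10055 and 9045 in the mutants, against 10348 and 8967 in the controls, a ratio of 0.989 of the means. In bulk RNA, fewer cells of a type and less RNA per cell cannot be told apart.

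Type II and type I sums moved little against each other. krt4, krt5 and krt8 together came to 7098 and 6546 FPKM in the mutants, against 7484 and 6503 FPKM in the controls. The 4 type I genes other than krt18 came to 2957 and 2499 FPKM in the mutants, against 2863 and 2464 FPKM in the controls. Type II over type I without krt18 was 2.40 and 2.62 in the mutants and 2.61 and 2.64 in the controls, with mutant 1 alone low. With krt18 it was 1.53 in mutant 1 and 1.55 in control 2, so type II RNA exceeded that of these 5 type I genes in both libraries where the sum could be formed.

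The keratins varied with the library number, and for each of the 7 tested ones this spread was larger than the difference between genotypes. For all 7 tested keratins, mutant 1 and control 1 both lay above mutant 2 and control 2, a pattern that 28.7% of all genes tested showed. That order by itself makes the spread by number exceed the genotype difference and makes the genotypes overlap. The order, the larger spread and the overlap are therefore not separate results. No label gives the number a meaning. The summed level of libraries 1 over libraries 2 was 1.23 for cyt1, 1.22 for cyt1l and 1.20 for krt17, and the type II genes varied less, at 1.15 for krt4, 1.12 for krt5 and 1.06 for krt8. krt92 was at 1.10. Within each number the genotypes lay close together. Mutant 1 stood at 0.950 of control 1 for krt4, 0.949 for krt5 and 0.944 for krt8, and mutant 2 at 1.006, 1.005 and 1.01 of control 2 for krt4, krt5 and krt8. For cyt1 mutant 1 was at 1.13 of control 1 and mutant 2 at 1.07 of control 2. Median-ratio factors of the libraries ran only from 0.994 to 1.01, so rescaling moved these values little.

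**Figure D3:**
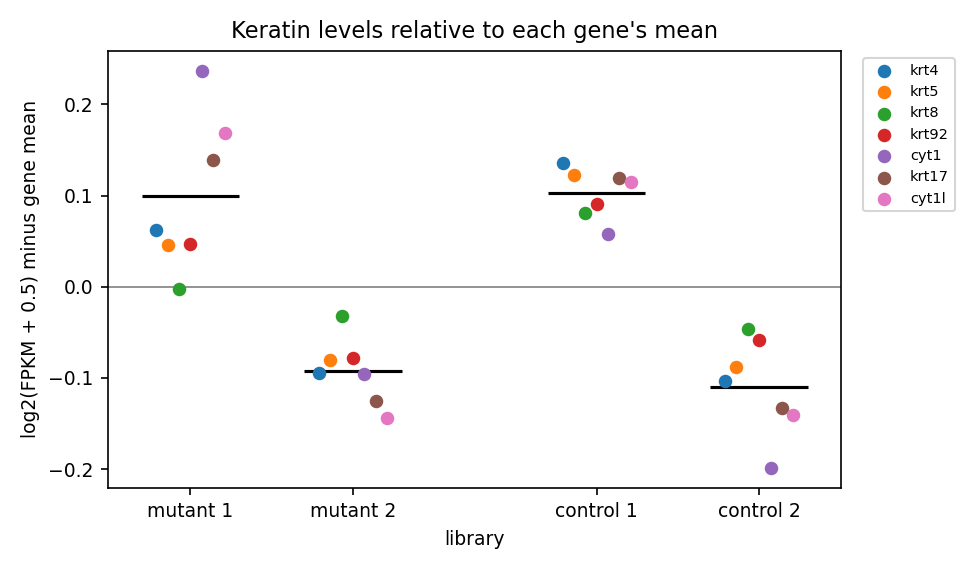
Log2(FPKM + 0.5) of each tested keratin minus its mean over the 4 libraries, 1 point per gene and library, with the mean of the 7 genes as a black bar. The bars are at 0.10 in mutant 1 and control 1, at -0.09 in mutant 2 and at -0.11 in control 2, and cyt1 is the highest point of mutant 1.

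Genes other than the tested keratins were ranked by how near their library pattern lay to the mean pattern of the tested keratins. The tested keratins were left out of this search, so it could not return them. Among 1081 other genes with a mean of at least 100 FPKM, the smallest root mean square distances on the centred log2 scale over the 4 libraries belonged to suclg1 (0.0159), itm1 (0.0160), sepp1a (0.0177), pfn1 (0.0188) and nasp (0.0250), against a median of 0.128. suclg1 encodes a subunit of a mitochondrial succinyl-CoA ligase, pfn1 the actin-binding profilin and nasp a histone chaperone. pfn1 had 951 and 849 FPKM in the mutants, against 974 and 853 FPKM in the controls. The distances of the tested keratins from their own mean pattern ran from 0.0251, about level with nasp, to 0.0849. Each tested keratin is part of that mean, which shortens its distance. A gene with the same value in all 4 libraries would lie at 0.101 from the mean pattern, nearer than the median of the genes compared.

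Most other keratin loci of the table were far lower. By table symbol, current symbol of the gene ID or a KRT18, KRT23 or KRT222 name, 16 further rows were found. Of these, 8 had a mean under 1 FPKM, 7 were tested and 1, krt99 (zgc:110712 in the table), failed in mutant 2. The 8 rows under 1 FPKM were not tested. Among them 3 (krt1-c5, krt1-19e and krt15) had both mutants below both controls and 1 (krt94) had both above. The share over all genes at such low levels was not computed, so these counts have no background. krt1-c5, for example, was at 0.203 and 0.104 FPKM in the mutants, against 0.323 and 0.269 FPKM in the controls. The authors' intervals for krt1-c5 overlapped between the genotypes. krt99 was high, with 504 FPKM in mutant 1, against 480 and 460 FPKM in controls 1 and 2. krt97 (KRT23 (1 of 15), chromosome 22) had 294 and 259 FPKM in the mutants, against 295 and 279 FPKM in the controls, with a log2 difference of -0.06. krt91 had 45.5 and 36.2 FPKM in the mutants, against 39.6 and 32.2 FPKM in the controls. Its log2 difference was 0.18 (95% interval -0.23 to 0.59). The order of libraries seen in cyt1 was shared by krt91 and also by krt17. krt91, whose locus overlaps that of cyt1, stood at 0.0554 and 0.0555 of cyt1 in the mutants, against 0.0546 and 0.0530 in the controls. KRT23 (2 of 15) had 12.8 and 10.5 FPKM in the mutants, against 12.0 and 11.3 FPKM in the controls. The other 4 tested rows, KRT222, krt95, KRT23 (15 of 15) and krt1-19d, had means between 1.03 and 2.78 FPKM and log2 differences between -0.07 and 0.13. None of the 7 passed the adjusted threshold and 0 had an unadjusted p under 0.05 in limma.

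High and low keratins stood next to each other in the genome. On chromosome 19, 7 keratin rows lie within 56.1 kb. krt92, cyt1l, cyt1 and krt17 had means of 962, 502, 701 and 530 FPKM, while krt1-19d and krt1-19e, in the same cluster, had 1.03 and 0.104 FPKM. krt91 spans 18.2 kb and takes in krt17 and most of cyt1. On chromosome 23, krt5, krt8 and krt18 lie within 182 kb, and krt18a.2, which starts 1166 bp after the end of krt18, had a mean of 0.209 FPKM. On chromosome 6, krt18b lies 47.3 kb beyond krt4 and had a mean of 0.663 FPKM. Near-identical copies can share reads, and no source used here says how the authors' counting split them, so the levels of cyt1, cyt1l, krt17 and krt91 are uncertain in that respect.

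**Figure D4:**
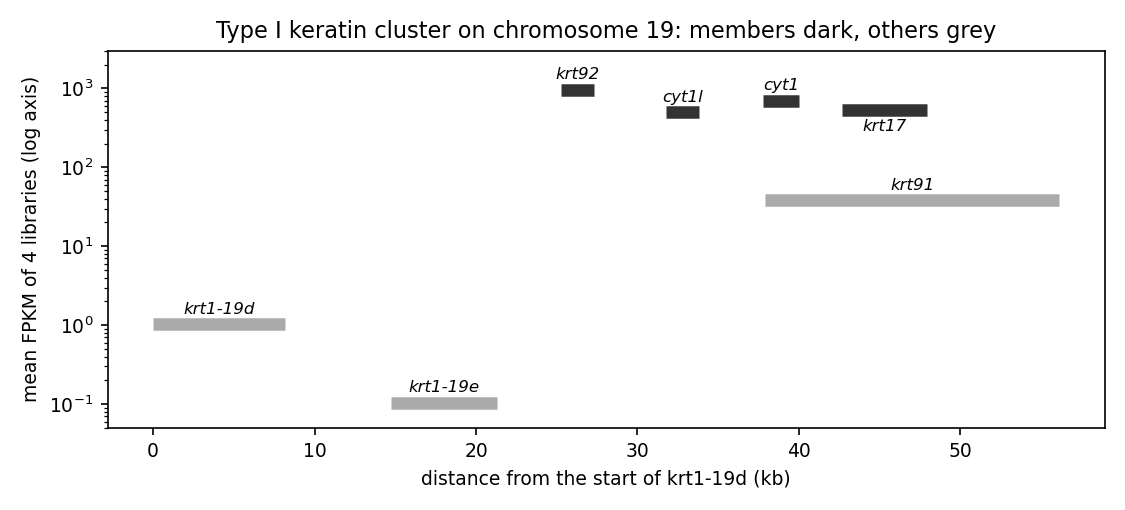
Keratin rows on chromosome 19, each bar running from the start to the end of its locus in kb from the start of krt1-19d, at the height of its mean FPKM over 4 libraries (log axis). krt92, cyt1l, cyt1 and krt17 (dark) lie between 502 and 962 FPKM, and the grey bar of krt91 overlaps cyt1 and krt17.

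Other genes of the same surface cells were compared next. Of 25 tested periderm genes other than keratins, 13 had a log2 difference above 0 and 12 below it, with a median of 0.01, and 0 passed the adjusted threshold. 2 had an unadjusted p under 0.05, both lower in the mutants, against 0.907% of all genes in that direction. They were anxa1a, an annexin gene, with 86.8 and 97.4 FPKM in the mutants against 220 and 236 FPKM in the controls, and tagln2, an actin-binding transgelin gene, with 199 and 189 FPKM in the mutants against 341 and 347 FPKM in the controls. Their log2 differences were -1.31 (adjusted p = 0.0551 in limma) and -0.82 (adjusted p = 0.0884 in limma), and both lie on chromosome 5, as tbx1 does. The periderm genes anxa1b (0.06) and anxa1c (-0.01) lie on that chromosome as well, but farther along it. anxa1a starts at 2.72e+07 bp and tagln2 at 3.87e+07 bp, against 6.75e+07 bp for anxa1b and for anxa1c. Any part of the position in the differences of these genes was not tested. anxa1a and tagln2 both passed when loci under 300 bp were left out (adjusted p = 0.0397 each in limma). The tight junction gene cldnf was at a log2 difference of 0.18. Some periderm genes are counted again below, agr2 among hatching gland markers and ppl and evpla among desmosome and linker genes. The grainyhead factor genes grhl1 and grhl3, chosen after their values were seen, were at -0.05 and -0.07.

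Basal epidermal and specification genes gave 13 above and 5 below 0 among 18 tested, with a median of 0.03, and 0 past the adjusted threshold or an unadjusted p of 0.05 in limma. Those of lowest p were tfap2c, an AP-2 factor gene of ectoderm (0.14), vox, a ventralizing homeobox gene (-0.12), and itga6b, an integrin gene of the hemidesmosome (0.11). tp63, chosen after its values were seen, had 39.9 and 31.7 FPKM in the mutants, against 37.9 and 31.5 FPKM in the controls. Like the keratins, 13 of these 18 genes, tp63 among them, had both libraries numbered 1 above both numbered 2, and 0 had the reverse order, where all genes tested gave 28.7% and 23.9%. Of the periderm genes, 11 of 25 had the first order and 3 the reverse.

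Genes that tie keratin filaments to junctions, and other filament genes, also gave 0 calls and 0 unadjusted p under 0.05 in limma. Of 12 tested desmosome and linker genes, 8 were above and 4 below 0, with a median of 0.03. tchp, which encodes the keratin-binding trichoplein, was at 0.18, the plakophilin gene pkp3 at -0.11 and the envoplakin gene evpla at -0.14. Of 8 tested filament genes other than keratins, 4 were above and 4 below 0, with a median of 0.01, with glial gfap at 0.15, the lamin gene lmnb2 at 0.09 and nes, which encodes nestin, at 0.16. The most abundant of these was lmnb1, chosen after its values were seen, at 130 and 131 FPKM in the mutants and 129 and 126 FPKM in the controls, well below each of the 8 keratins.

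**Figure D5:**
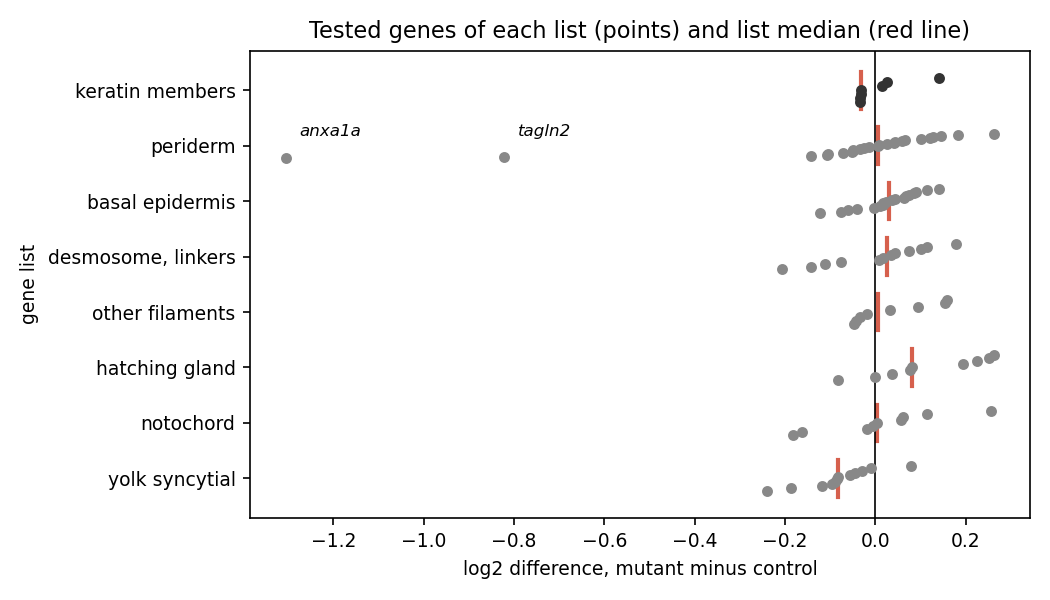
Log2 difference (mutant minus control) of each tested gene in each list (points), with list medians as red lines. The 7 keratins lie between -0.03 and 0.14, while anxa1a (-1.31) and tagln2 (-0.82) stand apart within the periderm list.

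Markers of other tissues that can carry keratin RNA were measured beside these. Of 9 tested hatching gland markers, 7 were above 0, with a median of 0.08 and a summed level over all matched genes of 2016 and 1926 FPKM in the mutants, against 1942 and 1968 FPKM in the controls. The sum counts ctslb, whose estimate was marked HIDATA in each library, as 0. This is not an absence, since the level of ctslb is unknown here. The transferrin gene tfa is not particular to that gland and was chosen after its values were seen. It made up more than any other member with a usable estimate. Its level was 1066 and 1104 FPKM in the mutants and 1088 and 1214 FPKM in the controls. The protease gene ctsl1b was at 0.19 (unadjusted p = 0.0277, adjusted p = 1.0 in limma), beside a background of 1.08% higher at an unadjusted p under 0.05, and agr2 was at 0.26 and klf17, called klf4 in the table, at 0.08. Of 9 tested notochord and floor plate markers, 5 were above 0, with a median of 0.0034. The summed level over all matched genes was 86.6 and 95.1 FPKM in the mutants and 87.5 and 93.6 FPKM in the controls. In this list col9a2 was at 0.26, ntn1b at -0.16 and col2a1a at 0.11. Of 12 tested yolk syncytial layer markers, 11 were below 0, with a median of -0.08 and a summed level of 15986 and 14798 FPKM in the mutants, against 17067 and 16002 FPKM in the controls. Over all genes tested, 7695 were above 0 and 5753 below it. Those of lowest p were serpina1l (-0.09), gata6 (-0.08) and serpina1 (-0.08). Some defining markers were absent or nearly so, as seen after the values were known, with he2 of the hatching gland and mxtx2 of the yolk syncytial layer below 0.1 FPKM in each library. None of these 3 lists held a gene past the adjusted threshold in limma, and their part in the keratin values was not tested.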

How the data were processed

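The deposited table gives an FPKM value for each gene in each library, in columns titled RPKM per the file headers, with 95% bounds and a status word. Per the submitters' processing notes the tools included Cuffdiff 2.0.2, Cufflinks 2.1.1 and TopHat2 2.0.8, with the Zv9 (danRer7) build; which of them made the values is not stated there. Coordinates are as deposited. Genes with status OK in all 4 libraries (32400) and a mean of at least 1 FPKM (13448) were tested on log2(FPKM + 0.5) with limma 3.58.1 in R 4.3.3 (two-sided, genotype only, with a mean-variance trend). Benjamini-Hochberg adjustment ran over every tested gene, at a threshold of 0.05. The pseudocount understates changes of low genes. The moderated test used 4.66 degrees of freedom (2.66 prior) and was tested on simulated data. The simulated noise was independent for each gene and library, so it does not cover shifts that many genes of a library share. The keratins and the gene lists were chosen with earlier results of these data known. The text names all 8 keratins, other keratin rows, the 3 tested genes of lowest p in each list, and the 5 genes nearest in pattern; rows found by current symbol were added after the table was seen. Of 140 list symbols, 119 were matched, and a pair of older and newer symbols of 1 gene counted once. Alternatives varied the pseudocount, the minimum, the scaling, the trend, robustness, short loci, the replicate number as a block and the libraries used. Figures were drawn with matplotlib 3.10.9.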

Additional observations from a re-analysis of the deposited data

How the results depend on the processing

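The number of keratins past the adjusted threshold was 0 under each of the 14 alternatives run in limma, with 0 unadjusted p under 0.05 among the 7. The count over all genes was 9, and it was 1 with no minimum, 16 with robust empirical Bayes and 28 to 39 with 1 library left out (39 without mutant 1, 37 without mutant 2, 30 without control 1, 28 without control 2). With loci under 300 bp left out the count was 7, of which 0 were among the 9. The median keratin difference ran from -0.11 to 0.087 on leaving out 1 library, and the ratio of sums from 0.923 to 1.06. With 2 libraries per group such shifts follow from the gap between replicates and say nothing about stability. Under quantile normalization krt4 was at 0.033, krt8 at 0.018, krt92 at 0.012, sepp1a at 0.0072 and pfn1 at 0.037, and under median-ratio rescaling nasp was at -0.0055; the cause was not tested. With 1 library left out, so that the lone library was assumed to vary like the other group, the sign turned for krt4 (-0.15 to 0.087), krt5 (-0.14 to 0.071), krt8 (-0.098 to 0.029), krt17 (-0.12 to 0.15), krt92 (-0.11 to 0.043), cyt1 (-0.026 to 0.31), cyt1l (-0.13 to 0.18), krt97 (-0.15 to 0.034), krt95 (-0.33 to 0.41), krt1-19d (-0.16 to 0.43), KRT222 (-0.10 to 0.10), KRT23 (2 of 15) (-0.14 to 0.12), gfap (-0.0069 to 0.32), lmnb2 (-0.0065 to 0.20), nes (-0.026 to 0.35), col2a1a (-0.054 to 0.28), suclg1 (-0.12 to 0.10), itm1 (-0.13 to 0.082), sepp1a (-0.097 to 0.094), pfn1 (-0.12 to 0.075) and nasp (-0.10 to 0.10). cyt1 was below 0 only without mutant 1. With the replicate number as a block 9 genes passed in limma, 8 of them shared with the fit without it, and the lowest keratin p was that of cyt1 (log2 difference 0.14, unadjusted 0.0558, adjusted p = 0.920 in limma). Differences between same-genotype libraries correlated at 0.347 between the genotypes across 13202 genes, which are not independent; with 2 pairs and no label for the number, this does not show that the libraries are paired. anxa1a also passed with the block, at a pseudocount of 0.1, at a mean of at least 5 FPKM, after quantile normalization and with robust empirical Bayes, and tagln2 with the last of these. anxa1a did not pass with no trend (adjusted p = 0.154 in limma), no minimum (0.402), a pseudocount of 1 (0.0566) or median-ratio rescaling (0.0547). In the remaining fits of all 4 libraries tagln2 did not pass, for example with no trend (adjusted p = 0.281 in limma) or with the block (0.112). With 2 libraries per group, a cyt1 level of 1.46 times the controls lay inside its interval; read totals were not given, so how far depth limits this was not tested.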
